A study of Mus musculus with 4 samples.

Results

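Last-exon m6A peaks are peaks that the deposited annotation placed in the final exon of a transcript with at least 2 exons and assigned to no UTR. They were taken from the lists of m6A peaks in mouse spinal cord by one rule, an annotation that begins with "Exon" and reads exon k of n with k equal to n. This gave 2759 of the 33556 peaks of the CCI list (8.22%, 95% Wilson interval 7.93 to 8.52%) and 2867 of the 34406 peaks of the sham list (8.33%, 8.05 to 8.63%). Wilson intervals here cover counting error only, since all peaks of a list come from the same libraries.

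The data were MeRIP-seq of spinal cord from C57BL/6J mice aged 6 to 8 weeks, taken on day 7. The CCI group had chronic constriction injury, and the sham group had sham surgery. In this injury loose silk ligatures are usually tied around the sciatic nerve. The methods of the paper describe only spinal nerve ligation and its sham operation. In MeRIP-seq, RNA fragments are pulled down with an m6A antibody to make the IP library, and an aliquot kept from before the pull-down makes the input library. Each group had a single IP and a single input library, and the number of mice behind each library was not given. A difference between CCI and sham thus rests on 1 sample per group and was not tested. Read counts were not used here, and the sequencing depth is unknown. In bulk tissue, fewer cells of a type and less RNA per cell cannot be told apart.

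N6-methyladenosine is placed on nascent RNA by a complex built around Mettl3 and Mettl14, mostly at an adenosine inside a GGAC-like core, and is removed by Fto and Alkbh5. Sites are known to gather in long internal exons and around stop codons, and splicing keeps methylation away from exon borders. The last exon is usually the longest exon of a transcript and carries no downstream splice junction. In protein-coding genes it usually holds the end of the coding sequence and the 3′-UTR. A last-exon peak outside the UTRs thus lies where the annotation puts coding or noncoding transcript sequence. The last exon here is that of the annotated transcript, which can have fewer exons than another transcript of the gene. *Espn*, for one, had CCI last-exon peaks in exon 12 of 12 and in exon 16 of 16.

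The tissue label was compared with markers of spinal cord and its neighbours. A peak in both lists was found for 8 of 9 neuronal, 6 of 7 astrocyte, 8 of 8 oligodendrocyte, 7 of 7 microglial and 8 of 9 posterior Hox genes, and for 1 of 6 forebrain genes (*Emx1*, *Emx2* and *Tbr1* were among those without). Of 8 dorsal root ganglion genes, 3 had a peak in CCI and 5 in sham, and of 5 muscle genes, 0 and 1. A gene without a peak may still have been expressed, because a peak needs both RNA and m6A.

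Reference sequence was at hand only where a last-exon peak of its own gene reached into a RefSeq promoter window (300 bp, GRCm38.p6) of the same or another gene by at least 40 bp, and 17 CCI and 15 sham peaks were read in this way. The sequences below show what such peaks look like on the transcript strand, with the core of the m6A motif, GGAC, in capitals. Each site was covered by a last-exon peak in both lists.
Zfp169: ctgttgcagaGGACaagtccaacg
Fam219a: ccgacgacgaGGACctagatctca
D130058E05Rik: aacttaagagGGACccttgctac
A930004D18Rik: acgtactataGGACtggaccacgc
The Zfp169 site lies at chr13:48491176-48491199 on the minus strand, in a peak with a fold enrichment of 5.77 in CCI and 8.92 in sham. The Fam219a site lies at chr4:41520314-41520337 on the minus strand, and its peak was weak in both lists, at 1.44 and 1.49. The D130058E05Rik site lies at chr1:89931404-89931426 on the plus strand in a pair of overlapping CCI peaks (7.09 and 8.73), and the A930004D18Rik site, the one that reads GGACT, at chr2:18027094-18027117 on the minus strand (6.67 in CCI, 6.20 in sham). The A930004D18Rik line holds another GGAC, printed in lower case, and a further one lies elsewhere in the same peak. The search covered the transcript strand alone. GGAC was present in 7 of 18 CCI stretches (38.9%, 20.3 to 61.4%) and 6 of 15 sham stretches (40%, 19.8 to 64.3%). In each list a pair of overlapping D130058E05Rik stretches held the same GGAC and was counted as separate stretches, so the stretches are not all independent. At the same offsets and lengths it was present in 35.9% and 38.4% of 32817 promoter windows, so these few stretches held the motif about as often as promoter sequence at large.

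A few last-exon peaks lay over a microRNA hairpin, and the mature sequences (RefSeq, GRCm38.p6) are shown with the seed, bases 2 to 8, in capitals because the deposited row of these peaks names the microRNA although the annotated exon belongs to another gene.
mmu-miR-770-5p: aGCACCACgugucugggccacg
mmu-miR-1897-3p: uCAACUCGuucuguccggugag
mmu-miR-1896: cUCUCUGAuggugggugaggag
The miR-770 hairpin begins inside a last-exon peak of *Meg3* in sham (chr12:109563237-109563717, fold enrichment 7.35). The miR-1897 hairpin lies at the border of a *Sox2ot* peak in CCI (chr3:34638299-34638539, 2.42). The miR-1896 hairpin lies in a peak of an unnamed gene in both lists, at 3.12 in CCI and 17.6 in sham. A peak annotated to the 3′-UTR also lay over this hairpin in each list, at 6.70 in CCI and 18.6 in sham. The 3 seeds differ from each other.

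By level, last-exon peaks were near the middle of the classes. The median fold enrichment, the authors' ratio of IP over input, was 5.97 in CCI (quartiles 3.39 and 10.9) and 5.81 in sham (3.31 and 11.6). It was above that of internal-exon peaks (3.98 and 3.95), near that of 3′-UTR peaks (5.92 and 5.81), and below that of 5′-UTR peaks (8.51 and 8.21). A fold enrichment of at least 10 was reached by 28.6% of the last-exon peaks in CCI (26.9 to 30.3%) and 29.2% in sham (27.6 to 30.9%), against 30.6% and 31.0% of all other peaks, among which internal-exon peaks stood lowest at 18.1% and 18.2%. The log10 false discovery rate of the peak was below -10 for 46.6% of last-exon peaks in CCI (44.8 to 48.5%) and 44.8% in sham (43.0 to 46.6%). Of all other peaks 61.4% and 62.6% were below it. First-exon peaks, at 43.8% (41.0 to 46.6%) and 44.5% (41.8 to 47.2%), were close to last-exon peaks, and single-exon peaks were lower, at 40.35% and 35.6%. The median length was 210 bp in both lists, against 236 and 239 bp for the other peaks.

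**Figure D1:**
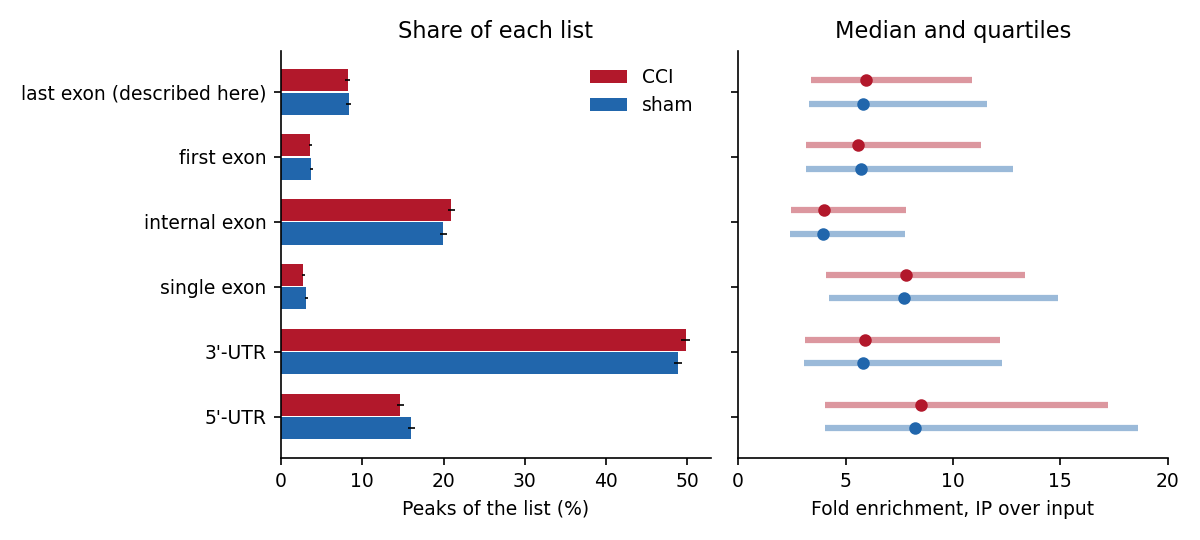
Left, share of each peak list by annotation class in percent, with 95% Wilson intervals as bars (CCI red, sham blue). Right, median fold enrichment of IP over input (points) with the quartiles (lines). Last-exon peaks made up 8.22% and 8.33% of the lists, with medians of 5.97 and 5.81 that lie above those of internal exons and near those of the 3′-UTR.

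The peaks were spread over many genes. They carried exons of 1776 named genes in CCI and 1836 in sham, of which 1351 were in both lists (76.1% of the CCI genes and 73.6% of the sham genes) and 2261 in either. Of the genes counted by identifier, 72.7% in CCI and 73.4% in sham had a single last-exon peak. The annotated exon belonged to another gene than the one the deposited row names for 12% and 12.6% of the peaks, and genes are named here by the exon. Another last-exon peak of the same list overlapped 5.65% of the CCI and 6.07% of the sham peaks.

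The annotated transcripts ranged widely in exon number. Transcripts of 2 exons held 30.6% of these peaks in CCI and 30.7% in sham, transcripts of 3 exons 18.1% and 18.3%, and transcripts of 20 or more exons 3.26% and 3.10%. The median fold enrichment was highest for 2 exons, at 6.61 and 6.67, and lowest for 20 or more, at 5.11 and 4.97.

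Long noncoding RNAs (lncRNAs), which have no coding sequence and so no UTR, took a larger share of last-exon peaks than of internal-exon and 3′-UTR peaks. RefSeq types gave protein-coding genes 73.1% of the last-exon peaks in CCI and 70.1% in sham. They gave lncRNAs 12.7% (11.5 to 14.0%) and 14.0% (12.8 to 15.3%). Among internal-exon peaks the lncRNA share was 1.11% and 1.27%, and among 3′-UTR peaks 0.556% and 0.625%. First-exon peaks, at 9.80% and 10.6%, and single-exon peaks, at 9.87% and 9.61%, were nearer to last-exon peaks. The lncRNA peaks had a median fold enrichment of 6.78 in CCI and 6.62 in sham, against 5.56 and 5.35 for coding genes.

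The rule leaves out peaks annotated to a 3′-UTR, so a last-exon peak of a coding gene tends to lie upstream of the UTR, while one of a lncRNA can reach the transcript end. The distances of these types are therefore given as a description that the rule in part fixes. The distance from the 3′ border of a peak to the transcript end could be measured for 1952 CCI and 2020 sham peaks of a single block on the transcript that the row describes. The CCI and sham medians were 1790 and 1848 bp for coding genes, and 628 and 509 bp for lncRNA genes. Within 100 bp of the end or past it lay 22.7% and 24.1% of the lncRNA peaks and 5.45% and 5.59% of the coding peaks. Over all types 64.7% in CCI and 63.5% in sham had their 3′ border at least 1000 bp from the end. Among lncRNA peaks, those 0 to 99 bp from the end had a median fold enrichment of 9.90 in CCI (51 peaks) and 10.7 in sham (62 peaks). In the bins from 100 to 4999 bp the medians were 6.67 to 7.95 in CCI and 5.26 to 7.55 in sham. Farther away lay a single CCI lncRNA peak, at 3.54, and none in sham. Among coding peaks, those 0 to 99 bp from the end had 6.52 (45 peaks) and 5.30 (51 peaks), against 4.76 to 5.97 and 5.12 to 5.56 in the bins farther away.

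**Figure D2:**
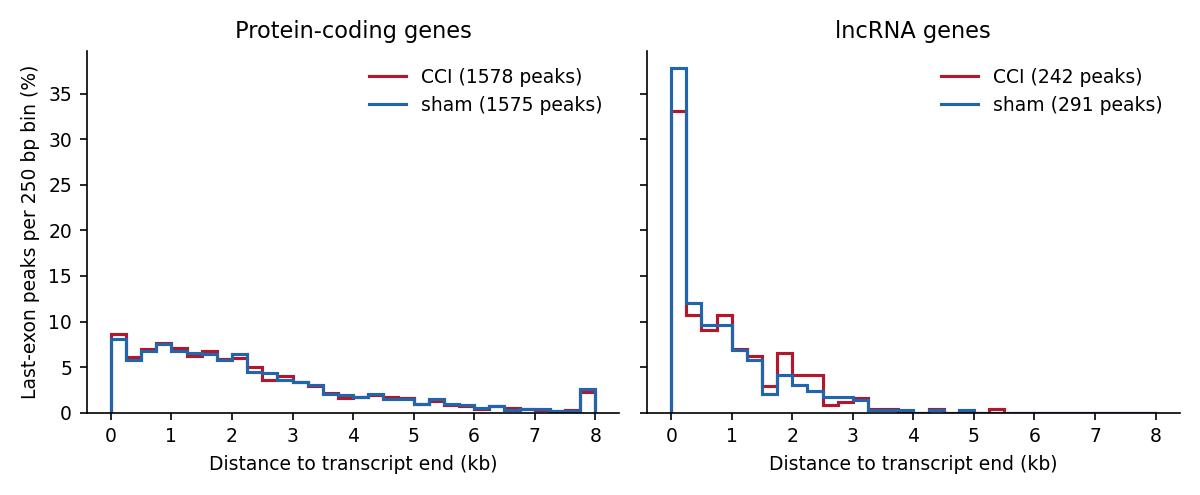
Distance from the 3′ border of a last-exon peak to the transcript end (x, kb) against the percent of such peaks per 250 bp bin (y), for protein-coding genes (left) and lncRNA genes (right) in CCI (red) and sham (blue). Distances under 0 are drawn in the first bin and those of 8 kb or more in the last. lncRNA peaks gather at the transcript end, with medians of 628 bp and 509 bp, and coding peaks are spread out with medians of 1790 bp and 1848 bp.

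Coding genes with a last-exon peak often also had a 3′-UTR peak. The same gene held a 3′-UTR peak for 61.5% of the coding last-exon peaks in CCI (59.4 to 63.6%) and 65.0% in sham (62.9 to 67.1%). For coding internal-exon peaks the shares were 75.7% and 76.3%. Where a 3′-UTR peak lay downstream, the median gap was 684 bp over 1152 CCI peaks and 688 bp over 1200 sham peaks, of any gene type. The gap was at most 100 bp for 6.86% and 7.75%, and at most 500 bp for 42.4% and 40.75%. A peak that runs on into the UTR can be annotated to the UTR, so the rule in part fixes the share of short gaps.

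Gene families whose coding sequence ends in one long exon held many of these peaks. Of the zinc-finger factors with any peak (genes named Zfp, Zbtb, Zscan and the like), DNA-binding proteins whose finger array is often encoded by the last exon, 192 of 384 had a last-exon peak in CCI (50.0%) and 196 of 388 in sham (50.5%). Over all genes with a peak the shares were 14.6% and 14.5%. The 318 CCI and 322 sham peaks of zinc-finger genes were 27.0% and 26.2% of all peaks in those genes, with medians of 5.55 and 5.23. The leading pairs were in *Zfp628*, *Zfp316* and *Zfp526*. *Zfp628* (exon 3 of 3, chr7:4918868-4919793 in CCI) reached 135 in CCI and 182 in sham, *Zfp316* (exon 7 of 7) 63.6 and 83.7, and *Zfp526* (exon 3 of 3) 26.6 and 31.5.

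Leucine-rich repeat synaptic adhesion proteins, cell-surface organisers of synapses that are often encoded in one exon, had a last-exon peak in 19 of 32 genes in CCI (59.4%) and 16 of 32 in sham (50.0%). *Rtn4rl1*, a Nogo receptor homologue, had 20.5 in CCI and 28.4 in sham. *Elfn1*, a postsynaptic adhesion protein, had 19.5 and 17.1. *Slitrk3*, an organiser of inhibitory synapses, had 17.3 and 10.2, and the fold enrichment of *Slitrk6* was 18.2 against 7.55. *Slitrk2*, *Slitrk4* and *Slitrk5* each had 2 pairs, all with values between 4.73 and 13.2.

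G protein-coupled receptors, many of them encoded in one coding exon, had a last-exon peak in 39 of 113 genes in CCI (34.5%) and 42 of 121 in sham (34.7%). *Gpr179*, an orphan receptor of retinal bipolar cells, had the leading pair, at 88.1 in CCI and 54.6 in sham. Another of its pairs went the other way, at 34.4 in CCI and 63.9 in sham. *Gpr153* had 56.5 and 42.4. *Chrm1*, a muscarinic acetylcholine receptor, had 11.5 and 16.3, and *Gpr37l1*, an astrocyte receptor, 5.25 and 5.94. Potassium channels had one in 15 of 64 genes in CCI (23.4%, 14.75 to 35.1%) and 13 of 67 in sham (19.4%, 11.7 to 30.4%). Over all genes the shares were 14.6% and 14.5%, and the sham interval includes the latter. *Kcnh5* had 16.1 and 17.3, *Kcnn3*, a calcium-activated channel, 10 and 11.1, *Kcna1*, an axonal channel, 3.23 and 3.62, and *Kcnk5* 10.4 and 36.0. Fast transmitter receptors had one in 4 of 33 genes in CCI (12.1%) and 5 of 32 in sham (15.6%), near the shares of all genes. *Grin2b*, an NMDA receptor subunit with exon 14 of 14, had 29.7 in CCI and 58.1 in sham in a peak 20166 bp from the transcript end in CCI.

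Homeodomain and Sox factors had a last-exon peak in 8 of 112 genes in CCI (7.14%, 3.66 to 13.5%) and 11 of 116 in sham (9.48%, 5.38 to 16.2%), and the sham interval includes the share of all genes. *Sox2ot*, which matched this list by its name, is a lncRNA, and had 14.1 and 12.1. *Sox18* and *Sox17*, factors of the endothelium, had 9.61 and 8.94, and 7.42 and 10.8. Genes without a functional name (Gm and Rik) had a last-exon peak in 280 of 1063 in CCI (26.3%) and 330 of 1167 in sham (28.3%), among them *4930432E11Rik* at 386 and 425, the highest pair of all.

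**Figure D3:**
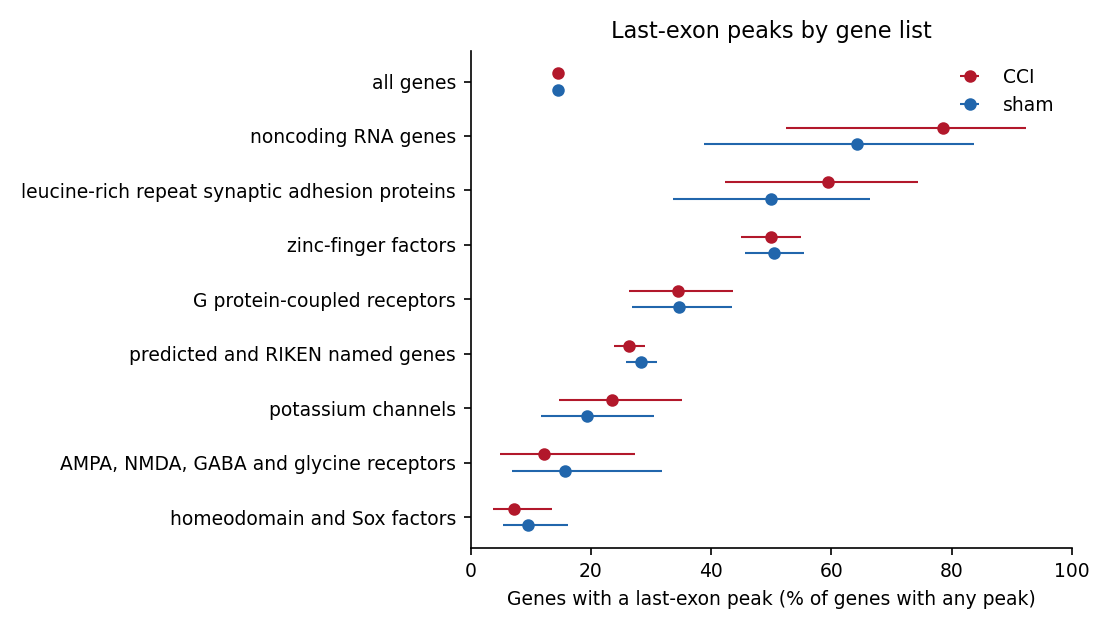
Percent of the genes with any peak that had a last-exon peak (x), by gene list (y), with 95% Wilson intervals, in CCI (red) and sham (blue). Zinc-finger factors stand at 50.0% and 50.5% and homeodomain and Sox factors at 7.14% and 9.48%, with all genes at 14.6% and 14.5%.

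A few genes carried many last-exon peaks. *Ahnak*, a giant scaffold protein of the cell cortex, had 21 in CCI and 23 in sham, all in exon 5 of 5 on chromosome 19 (chr19:9002864-9018231 from first to last in CCI). Its fold enrichments ran from 1.78 to 9.68 in CCI with a median of 2.94, and from 1.62 to 9.68 in sham with a median of 3.36. The first pair of the exon had 9.68 in CCI and 3.68 in sham. Of its 19 pairs, 11 were higher in CCI and 8 lower, 1 in each direction by 2-fold or more, so the many peaks of *Ahnak* went no single way.

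*Zfp292*, a large zinc-finger protein, had 8 and 11 last-exon peaks, and its strongest pair lay farthest from the transcript end, at 15.1 in CCI and 7.79 in sham. Of 8 pairs, 5 were higher in CCI and 3 lower. *Usf3*, a basic helix-loop-helix factor, had 8 and 10, and 6 of its 8 pairs were higher in CCI, 2 of them by at least 2-fold, with log2 ratios up to 1.87 (7.30 in CCI and 2.00 in sham). Its strongest pair had 29.0 and 17.0. *E130317F20Rik* had 6 in CCI and 13 in sham, and its 3 pairs were all lower in CCI.

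**Figure D4:**
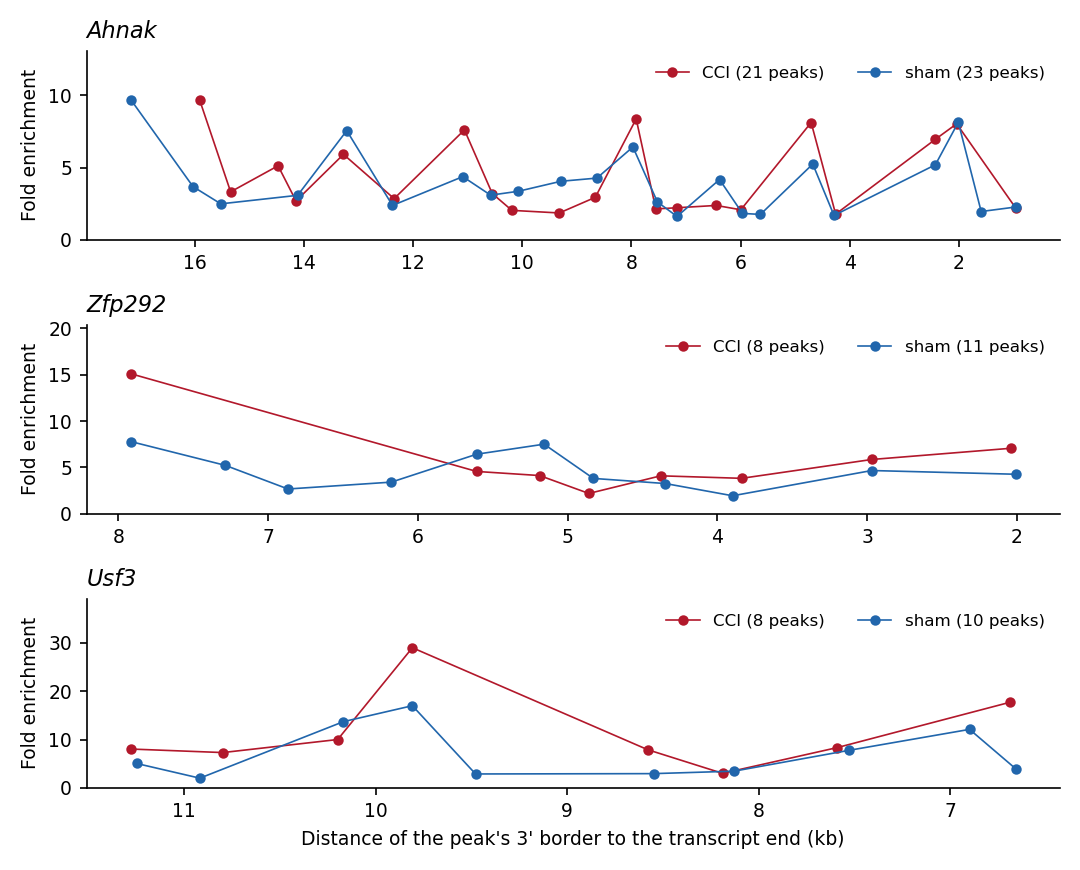
Fold enrichment (y) of each last-exon peak against the distance of its 3′ border to the transcript end (x, kb, the transcript end to the right) in *Ahnak*, *Zfp292* and *Usf3*, in CCI (red) and sham (blue). Lines only join neighbouring peaks. In *Ahnak* the highest peak of each list, at 9.68, lies toward the start of the exon.

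*Meg3*, an imprinted lncRNA of the Dlk1-Dio3 locus, had 13 last-exon peaks in CCI and 14 in sham, assigned to last exons of several transcripts with different exon numbers. Its strongest pair (exon 10 of 10, chr12:109571306-109571726 in both lists) had 41.8 in CCI and 39.4 in sham. All 10 of its pairs were higher in CCI, by 0.08 to 0.71 on the log2 scale, and none by 2-fold. The pairs of 1 gene share their RNA and are not independent of each other.

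The longest last-exon peaks were in *Ppp1r26* (3229 bp, fold enrichment 48.5, sham), *Tchh* (2629 bp, 17.0, CCI), *Numa1* (2581 bp, 8.39, sham), *Mast4* (2310 bp, 20.5, sham), and *Plec* and *C130021I20Rik* (both 2160 bp, 7.91 and 22.9, sham). *Plec*, a linker of the cytoskeleton, had 2100 bp and 7.57 in CCI, so its borders were close in the lists. In *Ppp1r26* the region of the sham peak was split in CCI into a peak of 1136 bp with 10.2 and one of 1824 bp with 21.9.

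How many of the peaks recurred depended on the list. A partner in the other list, by at least 1 bp, was found for 84.7% of the CCI last-exon peaks (83.3 to 86.0%) and 76.4% of the sham last-exon peaks (74.8 to 77.9%). For all other peaks the shares were 88.0% and 84.5%. Among these, first-exon peaks, at 81.0% and 72.3%, and single-exon peaks, at 83.6% and 69.0%, had lower shares than last-exon peaks. The 423 CCI and 678 sham peaks without a partner were short, with a median of 120 bp in both lists. Their median log10 false discovery rates were -2.96 and -2.88, against -11.5 and -13.8 for the peaks with one. Among reciprocal best partners, the sham partner of a CCI last-exon peak was again in a last exon in 89.6% of 2133 pairs and in the 3′-UTR in 6.00%. From the sham side the shares were 93.3% and 3.46% of 2050 pairs.

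In 1912 pairs both peaks were last-exon peaks, and the median log2 ratio of fold enrichment, CCI over sham, was 0.05 (95% interval of the median 0.02 to 0.09, over peaks). The ratio of all 27380 pairs had a median of 0.03. At least 2-fold higher in CCI were 197 pairs (10.3%, 9.02 to 11.7%), where the background over all pairs was 8.59%. At least 2-fold lower in CCI were 136 pairs (7.11%, 6.04 to 8.35%), where the background was 7.25%. The first share was a little above the background and the second near it. Across the 1912 pairs the fold enrichments of the lists had a Spearman correlation of 0.78, against 0.85 over all pairs, as a description across peaks of the same libraries.

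Pairs of lncRNA genes were more scattered between the lists. Of the 255 lncRNA pairs 16.1% were at least 2-fold higher in CCI and 9.41% at least 2-fold lower, against 9.05% and 6.01% of 1381 coding pairs. Over all 575 lncRNA pairs of any class the shares were 13.4% and 11%. The Spearman correlation of the last-exon pairs was 0.72 in lncRNA genes and 0.81 in coding genes.

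**Figure D5:**
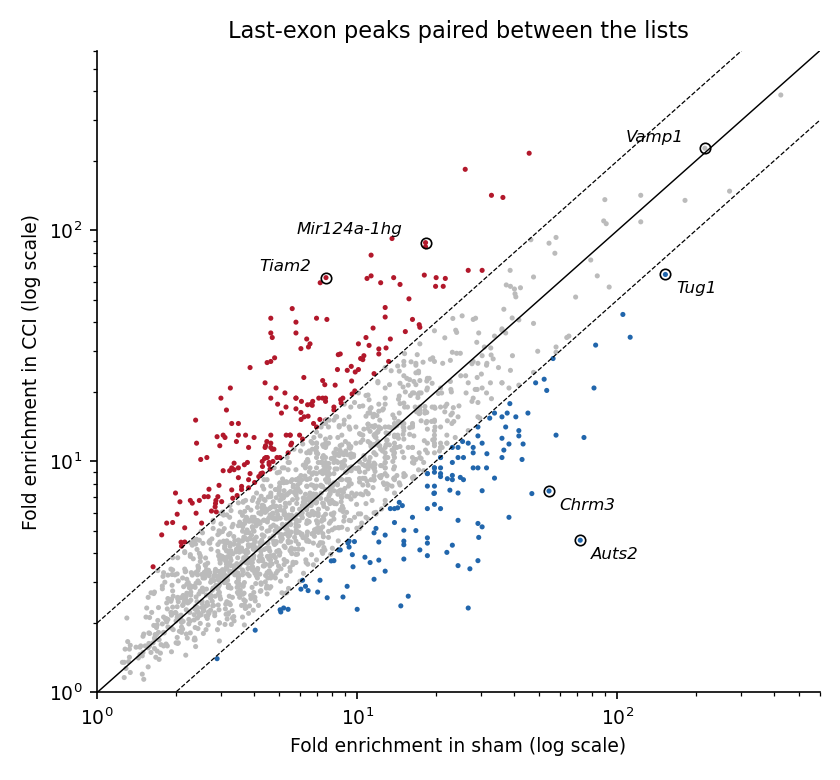
Fold enrichment in CCI (y) against sham (x), both on log scales, of the 1912 pairs of last-exon peaks. The solid line marks equal values and the dashed lines a 2-fold ratio, with 197 pairs in red above and 136 pairs in blue below, and open circles mark named pairs.

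The strongest shared pair by its smaller value, among genes with a functional name, was in *Vamp1*, a vesicle protein of fast synaptic release. It had 227 in CCI and 217 in sham in exon 2 of 2 (chr6:125241886-125242485 in both lists). The histone methyltransferase gene *Setd1b* had 142 and 123, and *Espn*, an actin-bundling protein, 109 and 123. *AC165080.4* had 136 and 89.5, and *Mnt*, a Max-binding repressor, 110 and 88.6. *Acer2*, a ceramidase, had 74.5 and 79.0. The lncRNA *Tug1* (exon 2 of 2, chr11:3639785-3640054, at the transcript end) differed more, at 64.5 and 153. The choice by the smaller value favours pairs that are high in both lists, and 84.2% of all pairs were within 2-fold.

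The largest ratios higher in CCI, leaving out Gm and Rik genes, among pairs that share at least 50% of both peaks and have a fold enrichment of at least 2 in both lists, were led by *Tiam2*, a Rac exchange factor. It had 62.5 in CCI and 7.58 in sham (exon 27 of 27, chr17:3518440-3518709 in CCI, log2 ratio 3.04). *Zic4*, a zinc-finger factor of the dorsal midline, had 36.0 and 4.65, *Pced1b* 34.4 and 4.71, and *Zdbf2*, an imprinted gene, 40.1 and 5.81. *Nfs1*, the mitochondrial cysteine desulfurase, had 92.3 and 13.6. *Sstr3*, a somatostatin receptor, had 25.5 and 3.87, *Zfp72* 36.0 and 5.81, and *Trim65*, in a row named *Trim47*, 41.7 and 6.97. The last of these 8 had a log2 ratio of 2.58.

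The largest ratios lower in CCI, by the same choice, were led by *Auts2*, a gene of neuronal development. It had 4.56 in CCI and 72.0 in sham (exon 19 of 19, chr5:131437363-131437483 in CCI, log2 ratio -3.98). *Cers4*, a ceramide synthase, had 2.32 and 26.7, and *Chrm3*, a muscarinic receptor, 7.45 and 54.6. *Zfp811* had 4.69 and 29.3, *Ahnak2* 12.7 and 74.4, *Zmiz1os1* 5.56 and 24.4, *Zfp940* 2.29 and 9.99, and *Tsku*, a secreted leucine-rich repeat protein, 4.43 and 18.6. Another peak of the same gene did not share the ratio in *Ahnak2*, whose other leading pair had 28.1 in CCI and 19.5 in sham, nor in *Chrm3*, where a different pair had 5.69 and 5.66.

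High fold enrichments fell on a grid, which bears on these ratios. Among sham last-exon peaks with a fold enrichment of 20 to under 60, 135 of 222 (60.8%) lay within 0.05 of a whole multiple of 1.16, where even spacing alone gives 8.61%. In CCI 102 of 194 (52.6%) lay within 0.05 of a whole multiple of 0.521, where it gives 19.2%. The steps were found on the peaks of other classes, of which 47.2% in CCI and 48.95% in sham lay on the grid in the same range. A ratio of whole read numbers over 1 or a few input reads would give steps, but read counts were not used here. Of the 8 pairs highest in CCI, 5 had a CCI value on the grid, and of the 8 lowest, 6 had a sham value on it. The CCI values of *Zic4* and *Zfp72* (69.1 steps each) and of *Nfs1* (177.2 steps) were counted as off it. At so many steps a small error in the step size can move a value off the grid, so these counts are rough. With so few pairs and a rough step, whether the pairs differ from last-exon peaks at large was not tested. The part of low input in the ratios of these pairs was not tested.

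Among secreted growth factors, all 5 pairs, from 4 genes, were lower in CCI, but only 1 by at least 2-fold. Of all pairs 47.8% were lower. *Bmp2*, a bone morphogenetic protein, had 12.6 in CCI and 36.0 in sham. *Ntf3*, the neurotrophin of TrkC, had 12 and 22.1 in one pair and 9.90 and 12.8 in another. *Vgf*, a neuropeptide precursor, had 9.71 and 10.5, of like size in the lists. A last-exon peak of *Inhba* had 31.3 in CCI.

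Among potassium channels 10 of 13 pairs were lower in CCI, where 47.8% of all pairs were. Only 1 pair in each direction passed 2-fold. *Kcnh8* was higher in CCI, with 23.1 in CCI and 6.23 in sham. Of 29 pairs of the listed noncoding RNAs 22 were higher in CCI, 10 of them in *Meg3*, and 7 were lower. At least 2-fold higher were 2 and lower 1. Of the 255 last-exon pairs of lncRNA genes 43.9% were lower in CCI. *Mir124a-1hg*, the host of a neuronal microRNA, had 88.6 in CCI and 18.3 in sham at its transcript end (chr14:64593602-64593961), and 4.70 and 4.09 upstream. *Mirg*, a microRNA host of the Dlk1-Dio3 locus, had 39.6 and 47.6. Zinc-finger genes were divided, with 117 of 228 pairs higher in CCI and 109 lower.

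Immediate early genes, transcription factors that respond to activity, had a last-exon peak in 3 of 22 genes in CCI (13.6%) and 3 of 23 in sham (13.0%). These shares were near those of all genes, 14.6% and 14.5%. *Egr3* had 51.5 in CCI and 69.1 in sham, and *Egr2* 22.2 and 12. *Fos* had a last-exon peak in CCI, at 4.54, and a peak of the sham list overlapped it. Of the m6A writers, erasers and readers 1 of 14 genes in CCI and 3 of 15 in sham had one. *Virma*, a subunit of the writer complex, had 2.94 and 3.53.

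A list of spinal cord genes assayed beside the sequencing (*Mmp24*, m6A enzymes and cell markers among them) held a pair of genes with a last-exon peak, each in a single list. *Mmp24*, a membrane-type metalloproteinase, had one in CCI (exon 9 of 9, chr2:155815712-155816040, fold enrichment 9.10). Its sham partner was a longer peak (chr2:155814134-155816070, 12.1) that the annotation put in the 3′-UTR. *Wtap*, a subunit of the writer complex, had one in sham (exon 8 of 8, chr17:12967484-12967992, 5.46), and its CCI partner, longer at one border (chr17:12967454-12967992, 6.54), was put in the 3′-UTR. The log2 ratio of CCI over sham was -0.41 for *Mmp24* and 0.26 for *Wtap*, so the class of these peaks changed with their borders. *Mettl3* and *Mettl14* had no peak in either list.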

How the data were processed

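MeRIP-seq of spinal cord gave 1 IP and 1 input library for CCI and for sham. The authors deposited a list of m6A peaks per group. The fold enrichment is a ratio of IP over input that the authors computed. Each deposited peak carries a p-value for IP over input. Its log10 and that of the false discovery rate were treated as a deposited score, as some are minus infinity. The submitters' processing notes name fastp, HISAT2, HOMER, ChIPseeker and GRCm38, whereas the methods of the paper name Cutadapt, bowtie and MACS2, and the tables carry exomePeak column names. Whether calling used strand is not given in the sources used here. Another deposited table holds the authors' own comparison of the groups (log2 fold changes, p-values and false discovery rates) and was not used. No column belonged to another series (0 columns).

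Last-exon peaks were found by the rule given at the start of the report. Overlap was counted on exonic blocks (minimum 1 bp), and reciprocal best partners by shared bases were paired. A pair was called past a 2-fold ratio. Gene types came from RefSeq (GRCm38.p6), in which 2099 of 2261 names were symbols, 37 synonyms and 125 without a match. Named genes were the 10 pairs of highest smaller fold enrichment, the 8 largest ratios in each direction, the 5 genes with most and the 5 longest last-exon peaks, the 3 strongest pairs of each gene list, and the genes the study measured. A few genes that these rules name are not reported here. Gm and Rik names were given only under the gene counts, the lists, the longest peaks and the sequences. Other pairs of *Slitrk*, *Chrm*, *Kcn*, *Gpr*, *Vgf*, *Inhba*, *Fos* and *Mir124a-1hg* were chosen after their values were seen, as was the grid of fold enrichments. The members and lists were chosen with earlier results of these data known. Overlap and pairing were tested on simulated data. The alternatives covered the false discovery rate, fold enrichment and length of peaks, the overlap, the unit of counting and the reference point of distances. Tables were made with pandas 2.3.3 and numpy 2.4.6 in Python 3.11.15, figures with matplotlib 3.10.9, and Wilson intervals with scipy 1.17.1.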

Additional observations from a re-analysis of the deposited data

How the results depend on the processing

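Of 33 alternative settings, 17 left the value within its interval, 16 moved it and 0 reversed a direction. Counted per gene, 14.6% of the CCI genes and 14.5% of the sham genes had a last-exon peak, and with at least 3 exons the shares of peaks were 5.70% and 5.78%. With the exon required to belong to the gene that the deposited table names, an alternative added after seeing the data, they were 7.23% and 7.29%. The median fold enrichment was 7.26 in CCI and 6.97 in sham for the highest peak of each gene, and 6.57 and 6.47 for peaks of at least 100 bp. Partners fell to 67.9% and 64.0% when at least 50% of both peaks had to overlap, and to 73.1% and 70.0% when the partner had to be a last-exon peak. From the peak centre, the median distance to the transcript end was 1709 bp and 1675 bp. The median log2 ratio of CCI over sham stayed between 0.03 and 0.07 under its 5 alternatives, and centring on all pairs gave 0.03 with an interval from -0.01 to 0.07, which includes 0. Another 2 alternatives added after seeing the data, on the exon's gene and the count per gene, left the fold enrichment and the ratio within their intervals. The depth is unknown, so no limit of detection could be set. Leaving out a replicate could not be done. No paired analysis was possible because only 1 library of a kind was made from CCI and from sham.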
